A study of Homo sapiens with 12 samples.

Results

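The DNAJ genes, which encode the HSP40 or J protein co-chaperones, were examined across 12 RNA-seq libraries of Jurkat cells, a human leukaemic T cell line. Members were the rows whose symbol is DNAJ followed by A, B or C and a number, and 42 such genes were in both deposited tables, against 43805 genes that the tables shared. They comprised 4 genes of subfamily A, 12 of subfamily B and 26 of subfamily C. DNAJB3 met the rule in 1 table and is set apart. The first comparison set 3 libraries labelled ZNF683, whose genotype is a doxycycline-induced ZNF683, against 3 labelled Mock. The second set 3 libraries of the line titled Hobit, another name of ZNF683, grown with doxycycline (Dox+) against 3 of that line grown without it (Dox-), at a dose the labels give as 1 ug/uL. Hobit is a zinc finger protein that controls transcription in tissue-resident lymphocytes. Whether Mock cells were given doxycycline, which construct drives ZNF683 and whether the line is 1 clone are not stated in the labels. All groups share the Jurkat background and RPMI medium with fetal calf serum.

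J proteins carry a J domain, through which they bind HSP70 chaperones and speed the hydrolysis of ATP that closes HSP70 on its client. Subfamily A members share a glycine- and phenylalanine-rich stretch and a zinc finger with bacterial DnaJ, subfamily B members lack the zinc finger, and subfamily C members share with them the J domain alone and are otherwise diverse. Some are induced by the heat shock factor HSF1, some sit in the endoplasmic reticulum or mitochondria, and others serve ribosomes, the spliceosome or vesicles.

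Values are TPM, a length-normalized abundance scaled to about the same total in each library. Depth is unknown, because TPM keeps no record of read number. The ZNF683 transcript measured 1.17, 1.76 and 1.04 TPM in the ZNF683-labelled libraries, against 0.715, 1.59 and 0.681 TPM in Mock, so those groups overlapped. It stayed under 1 TPM in the doxycycline table, at 0.453, 0.774 and 0.571 TPM in Dox+ and 0.115, 0.239 and 0.451 TPM in Dox-. Neither the construct nor the set of transcripts quantified is given in the sources used here, so whether these values count RNA from the construct is unknown. All 10 T cell and Jurkat markers averaged over 1 TPM in both tables, and none of the myeloid markers did. Of 5 B cell markers, 2 averaged over 1 TPM in the table of ZNF683 and Mock and 1 in the doxycycline table; of 5 epithelial and fibroblast markers, 2 did in each. Dox- libraries 1 and 2 stood apart. In Dox- library 1 the transcript AL135790.1 took 50.7% of all TPM, against 4.94 to 12.8% in the other 11 libraries, which lowers every other value there. To set this aside, values were also scaled by the median ratio of each library to the geometric mean of its table, here called median-of-ratios scaling.

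The family spanned a wide range of levels. Over the 12 libraries, 7 members averaged 100 TPM or more, 19 averaged 10 to 100 TPM, 11 averaged 1 to 10 TPM and 5 averaged under 1 TPM. DNAJA1, a cytosolic HSP70 partner of subfamily A, was the highest member in 8 libraries, with a median of 364 TPM. DNAJC8, a spliceosome-associated member, led in 3 libraries and had a median of 302 TPM. DNAJB1, the classical stress-inducible HSP40, had a median of 229 TPM and led in 1 library, Dox- 2. DNAJB6, which is known to suppress polyglutamine aggregation, had a median of 207 TPM. DNAJA1 and DNAJC8 were among the 3 highest members in all 12 libraries, joined by DNAJB1 in 9 of them and by DNAJB6 in 3. At the low end, DNAJA4, DNAJB8, DNAJB13, DNAJC12 and DNAJC22 had medians between 0.0229 and 0.547 TPM. DNAJB8 was listed at 0 in 5 libraries, and DNAJB3 reached at most 0.0372 TPM in the table that lists it. DNAJB3, DNAJB8 and DNAJB13 are known from testis.

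The summed level of the family did not separate the groups. It was 2683, 2626 and 2238 TPM in the libraries labelled ZNF683, against 2036, 2102 and 2498 TPM in Mock. Mock library 3 lay among the ZNF683 libraries, and ZNF683 library 3 lay between Mock libraries 2 and 3. The sum was 1990, 2129 and 2372 TPM in Dox+, against 990, 4420 and 2279 TPM in Dox-. Without DNAJB1, the Dox- sums were 911, 1513 and 2050 TPM, against 1809, 1920 and 2107 TPM in Dox+. DNAJB1 made up 65.8% of the family's TPM in Dox- library 2 and between 7.93 and 12.04% in the other 11 libraries. In these bulk libraries, fewer cells of a type and less RNA per cell cannot be told apart.

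**Figure D1:**
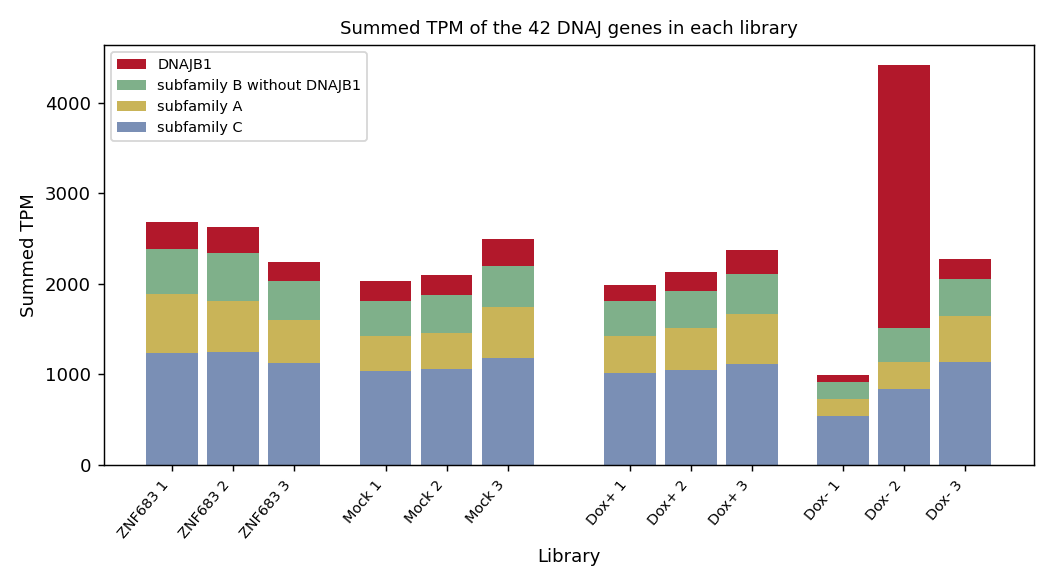
Summed TPM of the 42 DNAJ genes in each of the 12 libraries, as stacked bars of subfamily C, subfamily A, subfamily B without DNAJB1, and DNAJB1. Dox- library 1 has the lowest bar at 990 TPM, and in Dox- library 2 DNAJB1 fills 65.8% of a bar of 4420 TPM.

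For ZNF683 against Mock, 37 of the 42 members averaged at least 1 TPM over the 6 libraries and were tested. None passed an adjusted p of 0.05 by limma, where 5 of 16588 genes, or 0.0301%, did. At an unadjusted p under 0.05, 5 members were higher in the libraries labelled ZNF683 and 0 were lower, against 6.55% of all genes tested higher and 6.42% lower. The 3 libraries of one group lay wholly above those of the other for 8 tested members. In 7 of these ZNF683 was higher, against 8.71% of all genes, and in 1 it was lower, against 8.51% of all genes. After median-of-ratios scaling 8 members lay apart with ZNF683 higher and 0 lower, against 11.8% and 7.24% of all genes. The median log2 change of the tested members was 0.16, against 0.03 over all genes, and 27 of 37 members were positive, against 54.9% of all genes. Subfamily medians were 0.20 for 3 A members, 0.16 for 10 B members and 0.15 for 24 C members. With 3 libraries in each group, an exact permutation test of a single gene cannot give a p under 0.1.

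Of the 7 tested members whose ZNF683 libraries all lay above Mock, the 3 with the largest changes are given first. DNAJB11, the soluble ER partner of the HSP70 BiP also called ERdj3, was at 110, 113 and 89.7 TPM in the ZNF683 libraries and at 73.9, 77.4 and 87.5 TPM in Mock. All 3 ZNF683 values lay above all 3 Mock values, but ZNF683 library 3 exceeded Mock library 3 by little. Its log2 change was 0.38 ± 0.12 (SE), with an adjusted p of 0.328 by limma, the smallest among the members. DNAJC25 was at 7.10, 8.85 and 8.30 TPM in ZNF683 and at 5.92, 4.33 and 6.55 TPM in Mock, with a log2 change of 0.47 ± 0.16 and an adjusted p of 0.333. Its reads can be shared with the read-through gene DNAJC25-GNG10, which overlaps it on the same strand and was at 4.51, 6.56 and 7.26 TPM in ZNF683 and 6.17, 6.02 and 5.06 TPM in Mock. The groups of DNAJC25 lay apart while those of the read-through gene overlapped. DNAJC5, the cysteine string protein of secretory vesicles, was at 7.09, 8.98 and 6.81 TPM in ZNF683 and at 5.0, 5.31 and 6.51 TPM in Mock, a log2 change of 0.38 ± 0.14 with an adjusted p of 0.352.

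The other 4 had smaller log2 changes. DNAJB5, a cytosolic member of subfamily B, was at 9.24, 11.1 and 8.83 TPM in ZNF683 and at 7.74, 7.60 and 7.77 TPM in Mock, a log2 change of 0.29 ± 0.12 with an adjusted p of 0.365. DNAJC17, a nuclear member tied to splicing, was at 54.4, 60.7 and 64.2 TPM in ZNF683 and at 50.3, 49.0 and 51.5 TPM in Mock. Its groups lay apart, with a log2 change of 0.24 ± 0.10 and an adjusted p of 0.371. DNAJB9, the ER member ERdj4, was at 22.4, 24.1 and 22.1 TPM in ZNF683 and at 20.3, 20.7 and 20.6 TPM in Mock. DNAJC21, which serves ribosome assembly, was at 12.9, 12.3 and 13.1 TPM in ZNF683 and at 10.2, 11.8 and 11.4 TPM in Mock. Both lay apart at small log2 changes of 0.15 ± 0.09 and 0.18 ± 0.10.

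DNAJB4 was the 1 member whose ZNF683 libraries all lay below Mock. This HSF1-inducible cytosolic HSP40 was at 11.5, 11.8 and 10.4 TPM in ZNF683 and at 12.7, 15.1 and 12.6 TPM in Mock, a log2 change of -0.24 ± 0.12 with an adjusted p of 0.41. The separation did not remain after median-of-ratios scaling. Among the other HSF1-inducible members, DNAJA1 was at 506, 449 and 361 TPM in ZNF683 and at 290, 292 and 434 TPM in Mock, and the groups overlapped because Mock library 3 lay above ZNF683 library 3. Its log2 change was 0.38 ± 0.19 with an adjusted p of 0.422. DNAJB1 was at 300, 289 and 211 TPM in ZNF683 and at 229, 228 and 301 TPM in Mock, a log2 change of 0.07 ± 0.17, so the lowest library was a ZNF683 one and the highest a Mock one. DNAJA4 was too low to be tested, at 0.767, 0.638 and 0.631 TPM in ZNF683 and 0.463, 0.481 and 0.588 TPM in Mock. At these low levels its ZNF683 libraries all lay above Mock, also after median-of-ratios scaling.

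Among the other ER members, DNAJC10, the disulfide reductase ERdj5, had a log2 change of 0.33 ± 0.18, and the ER membrane proteins DNAJB12 and DNAJB14 had 0.25 ± 0.15 and 0.01 ± 0.10. DNAJC3, an ER member also known as an inhibitor of the kinase PERK, had -0.15 ± 0.17, DNAJC1 had -0.18 ± 0.17, DNAJC16 had -0.29 ± 0.18 and DNAJC18 had 0.15 ± 0.13. The 9 ER members thus comprised 6 positive and 3 negative changes with a median of 0.15, and no member passed the test. The 7 mitochondrial members had 3 positive and 4 negative changes with a median of -0.03. DNAJC11, which binds the inner membrane's cristae-organizing complex, was the most positive of these at 0.41 ± 0.21, while DNAJC19, a part of the protein import motor, was at 103, 94.3 and 141 TPM in ZNF683 and 136, 111 and 131 TPM in Mock, a log2 change of -0.18 ± 0.16. DNAJA3, the mitochondrial A member, had 0.16 ± 0.15.

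All 5 ribosome, nuclear and splicing members had positive changes, with a median of 0.18. DNAJC8 had a log2 change of 0.15 ± 0.11, and DNAJC2, which binds ribosomes with an HSP70 partner, had 0.25 ± 0.14. DNAJC9, a histone-binding member, had 0.11 ± 0.10, and its reads can be shared with the antisense gene DNAJC9-AS1. The 5 vesicle and endosome members had 4 positive changes and 1 negative with a median of 0.26. DNAJC14 is known from the export of a dopamine receptor out of the ER but was counted in this list, not among the ER members. It was at 68.0, 61.4 and 45.9 TPM in ZNF683 and 43.8, 45.6 and 54.9 TPM in Mock. Its log2 change was 0.26 ± 0.16 with overlapping groups. DNAJB2, which carries ubiquitin-binding motifs, had 0.44 ± 0.23. The aggregation-suppressing DNAJB6 had 0.18 ± 0.13, and DNAJC7, which links HSP70 to HSP90 through its TPR repeats, had 0.31 ± 0.16. DNAJC13, an endosomal member, had -0.09 ± 0.15, and DNAJC27, a small GTPase with a J domain, had 0.05 ± 0.18.

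The remaining members are given for completeness. DNAJA2, a cytosolic A member, was at 63.6, 53.4 and 49.5 TPM in ZNF683 and 42.3, 51.7 and 49.9 TPM in Mock, a log2 change of 0.20 ± 0.13 with overlapping groups. DNAJC30, a mitochondrial member, had 0.29 ± 0.15, DNAJC6, the clathrin-uncoating protein auxilin, had 0.29 ± 0.17, and DNAJC24, which takes part in diphthamide synthesis, had 0.10 ± 0.12. DNAJC15, like DNAJC19 a part of the import motor, had -0.07 ± 0.17, DNAJC28 had -0.09 ± 0.12, and DNAJC4, which overlaps NUDT22 on the same strand, had -0.03 ± 0.18. DNAJB7 was the 1 tested member of the testis or cilium list, at -0.16 ± 0.16 and a median of 0.949 TPM over the 12 libraries. Of the untested members, DNAJC12 was at 0.603, 0.56 and 0.75 TPM in ZNF683 and 1.09, 1.25 and 0.533 TPM in Mock, DNAJB13 ranged from 0.106 to 0.541 TPM over the 12 libraries, and DNAJC22 from 0.0736 to 0.795 TPM.

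The order of the libraries within each group was also counted. Among the 37 tested members, ZNF683 library 3 exceeded the ZNF683 mean for 7, against 26 for library 1 and 29 for library 2. Mock library 3 exceeded the ZNF683 mean for 18, against 7 for library 1 and 9 for library 2, but after median-of-ratios scaling for 11, against 7 and 8. Mock library 3 lay within the ZNF683 range for 22 members on either scale, and as deposited above it for 7 and below it for 8. The 2 other Mock libraries lay below the ZNF683 range for 25 and 20 members, and for 22 and 25 after scaling. The labels give no batch by which this order could be read.

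**Figure D2:**
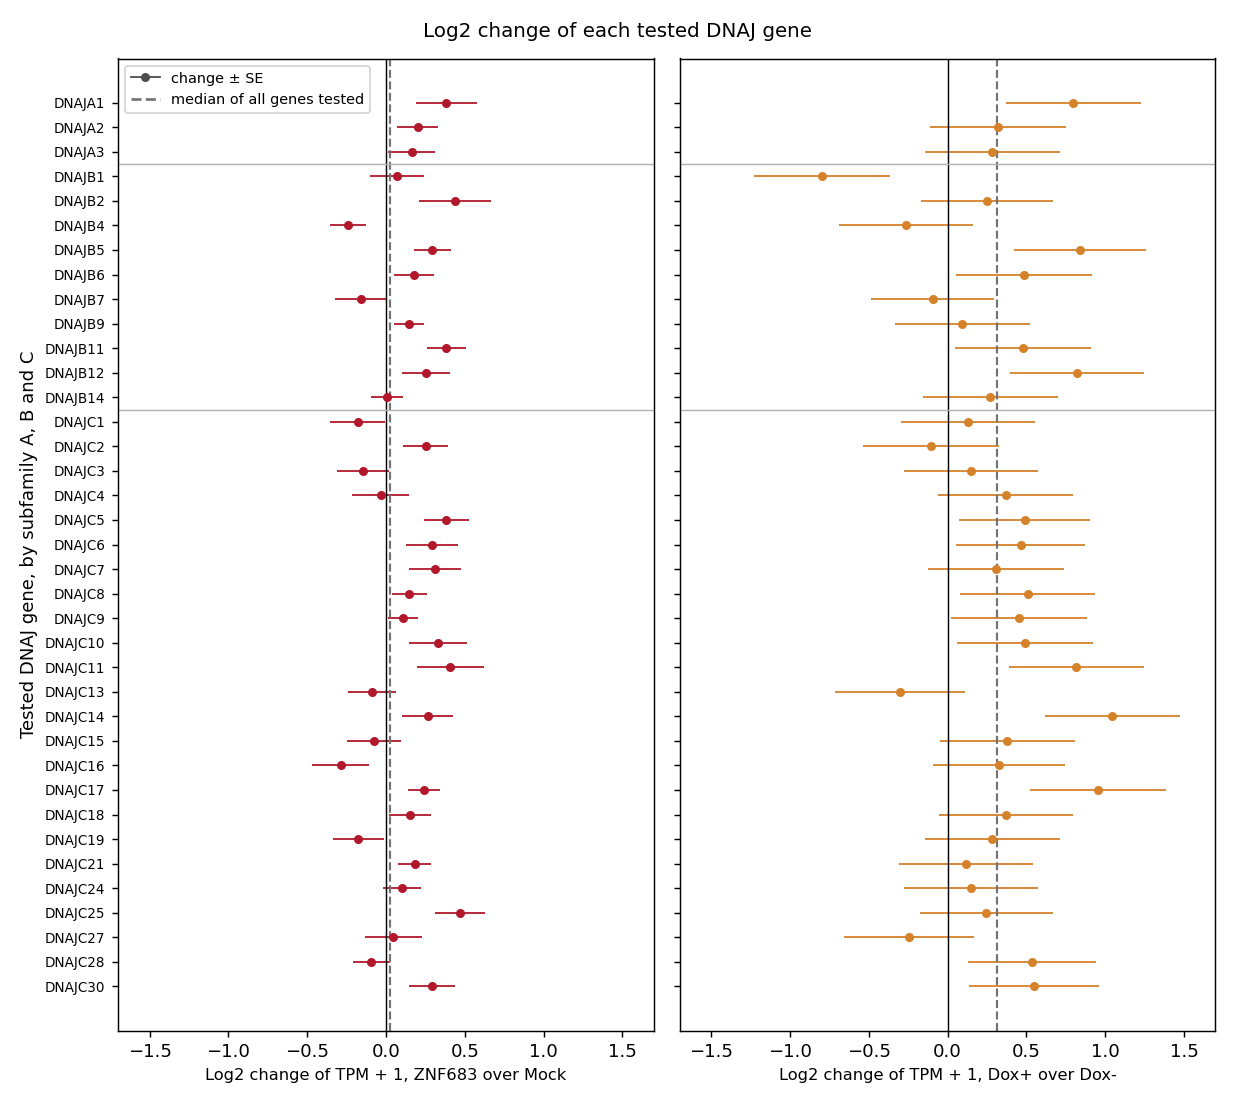
Log2 change of TPM + 1 for each of the 37 tested DNAJ genes, ZNF683 over Mock on the left and Dox+ over Dox- on the right, with bars of 1 standard error on each side and a dashed line at the median of all genes tested. The member medians are 0.16 for ZNF683 over Mock and 0.33 for Dox+ over Dox-, against dashed lines at 0.03 and 0.32. On the right the bars come from a spread fitted over genes of like level, not from each gene's own libraries.

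For Dox+ against Dox-, the same number of members, 37, was tested. None passed an adjusted p of 0.05 by limma, where 60 of 15148 genes, or 0.396%, did. At an unadjusted p under 0.05 as deposited, 3 members were higher in Dox+ and 0 were lower, against 4.69% and 1.65% of all genes. After median-of-ratios scaling 1 member was higher and 1 lower, and the share over all genes was not counted on that scale. The Dox+ libraries lay wholly above Dox- for 1 member, against 7.91% of all genes, and wholly below for 0 members, against 0.891% of all genes. After median-of-ratios scaling they lay above for 3 members and below for 2, against 9.34% and 3.72% of all genes. The median log2 change of the members was 0.33 and that of all genes was 0.32, and 20 members lay above the median of all genes and 17 below it. With median-of-ratios scaling the median of all genes moved to 0.13, and that of the members was also 0.13. Subfamily medians as deposited were 0.32 for A, 0.26 for B and 0.37 for C. The 10 T cell and Jurkat markers summed to 3404 to 3725 TPM in Dox+ and 1402 to 3003 TPM in Dox-, without overlap, and their part in the members' values was not tested.

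The Dox- libraries lay at different places relative to Dox+. Dox- library 1 was the lowest of the 6 libraries for 30 of 37 members and lay below the Dox+ range for 36. After median-of-ratios scaling it was the lowest for 3 members and lay within the Dox+ range for 17. Dox- library 3 lay above the Dox+ range for 16 members, within it for 15 and below it for 6, and after scaling above it for 7, within it for 20 and below it for 10. With Dox- libraries 1 and 2 left out, the lone Dox- library 3 being assumed to vary like the Dox+ group, the median change of the members was -0.11 and that of all genes -0.07, so the sign of both turned, and 0 members were called.

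DNAJC14 had the largest change, at 38.2, 43.2 and 45.4 TPM in Dox+ and 17.0, 10.3 and 44.1 TPM in Dox-. As deposited, Dox- library 3 lay within the Dox+ range, and the other 2 Dox- libraries were far below it. Its log2 change was 1.05 ± 0.43 with an adjusted p of 0.629 by limma. After median-of-ratios scaling DNAJC14 was at 33.3, 38.5 and 43.2 in Dox+ and at 29.2, 8.38 and 37.3 in Dox-. DNAJC17 followed, at 45.2, 53.4 and 53.9 TPM in Dox+ and 18.1, 16.6 and 55.2 TPM in Dox-, a log2 change of 0.96 ± 0.43 with an adjusted p of 0.731. Its highest library of the 6 was Dox- 3. DNAJB5 was the 1 member whose groups lay apart as deposited, at 9.03, 9.59 and 9.21 TPM in Dox+ and 3.49, 4.09 and 7.26 TPM in Dox-. Its log2 change was 0.84 ± 0.42 with an adjusted p of 0.737 by limma. After median-of-ratios scaling Dox+ lay wholly above Dox- for DNAJA2, DNAJB5 and DNAJB6 and wholly below for DNAJC13 and DNAJC27. DNAJB5 and DNAJC17 were also among the members apart in ZNF683 against Mock, at smaller log2 changes of 0.29 and 0.24.

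By role, most Dox+ changes were positive, as were 79.1% of those of all genes tested. The 9 ER members were all positive, with a median of 0.33, and so were the 7 mitochondrial members, with a median of 0.38. Of the 5 ribosome, nuclear and splicing members 4 were positive, with a median of 0.45 and DNAJC2 at -0.11 ± 0.43. Of the 5 vesicle and endosome members 3 were positive, with a median of 0.46, DNAJC13 at -0.30 ± 0.41 and DNAJC27 at -0.24 ± 0.41. The 3 tested members known from neuronal or muscle protein aggregation were positive, with a median of 0.49. After median-of-ratios scaling these medians were smaller, at 0.13 for the ER members, of which 6 were positive and 3 negative, and 0.17 for the mitochondrial members. They were 0.23, 0.29 and 0.26 for the ribosome, vesicle and aggregation members, against 0.13 over all genes. None of these members passed the test. DNAJB11 was at 74.9, 84.4 and 91.9 TPM in Dox+ and 37.5, 65.0 and 86.7 TPM in Dox-, a log2 change of 0.48 ± 0.43, with Dox- library 3 within the Dox+ range. DNAJC8 was at 270, 281 and 308 TPM in Dox+ and 141, 194 and 296 TPM in Dox-, and DNAJB6 was at 198, 199 and 226 TPM in Dox+ and 93.2, 172 and 201 TPM in Dox-. In both, as deposited, Dox- library 1 was the lowest and Dox- library 3 lay within the Dox+ range. After median-of-ratios scaling DNAJB6 was at 173, 178 and 215 in Dox+ and at 160, 141 and 170 in Dox-, so its groups lay apart. DNAJA4 was at 0.153, 0.192 and 0.233 TPM in Dox+ and 0.0925, 0.12 and 0.287 TPM in Dox-, below its level in the other table's libraries, although levels across tables were not normalized together.

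Without Dox- library 3, 8 members were called as higher in Dox+: DNAJA1, DNAJB5, DNAJB12, DNAJC10, DNAJC11, DNAJC14, DNAJC17 and DNAJC30. Their log2 changes there ran from 0.80 for DNAJC10 to 1.60 for DNAJC14, with adjusted p between 0.0342 and 0.0488. They were 22.2% of the 36 members tested there, against 18.2% of all genes called higher, which is near the background. That setting used values as deposited and kept as controls only Dox- libraries 1 and 2, the libraries that stood apart. All but DNAJC30 were more than 1 below the other libraries in Dox- library 2 on the scaled log2 values. DNAJB12 was at 21.1, 21.7 and 24.6 TPM in Dox+ and 9.66, 6.96 and 26.4 TPM in Dox-, and DNAJC11 was at 34.0, 39.4 and 47.3 TPM in Dox+ and 17.7, 11.4 and 52.9 TPM in Dox-. In both genes Dox- library 3 was the highest of the 6 libraries and Dox- library 2 the lowest. DNAJA1 was at 310, 367 and 440 TPM in Dox+ and 132, 185 and 389 TPM in Dox-, a log2 change of 0.80 ± 0.43 with an adjusted p of 0.737.

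DNAJB1 and DNAJB4 stood out in Dox- library 2. DNAJB1 was at 180, 208 and 266 TPM in Dox+ and at 78.5, 2907 and 229 TPM in Dox-. The value in Dox- library 2 was 13.9 times the median of the other 5 libraries of its table. DNAJB4 was at 14.7, 15.5 and 13.3 TPM in Dox+ and at 8.0, 45.5 and 14.3 TPM in Dox-, with Dox- library 2 at 3.19 times the median of the others. In both genes the other 2 Dox- libraries lay below the highest Dox+ library. The log2 changes were -0.80 ± 0.43 for DNAJB1 and -0.26 ± 0.43 for DNAJB4, with adjusted p of 0.737 and 0.813. These SEs reflect a spread fitted over genes of like level, and after median-of-ratios scaling DNAJB1 had -1.02 ± 0.99. Without Dox- library 2 both log2 changes turned positive as deposited, to 0.68 and 0.40, with Dox- library 1 lowered by AL135790.1. After median-of-ratios scaling DNAJB1 was at 158, 186 and 253 in Dox+ and at 135 and 194 in Dox- libraries 1 and 3. DNAJB4 was then at 12.8, 13.9 and 12.6 in Dox+ and at 13.7 and 12.1 in those Dox- libraries. In both genes these scaled values overlapped. The DNAJB1 pseudogene DNAJB1P1 was at 1.18 TPM in Dox- library 2 and at most 0.068 TPM in the other 5.

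**Figure D3:**
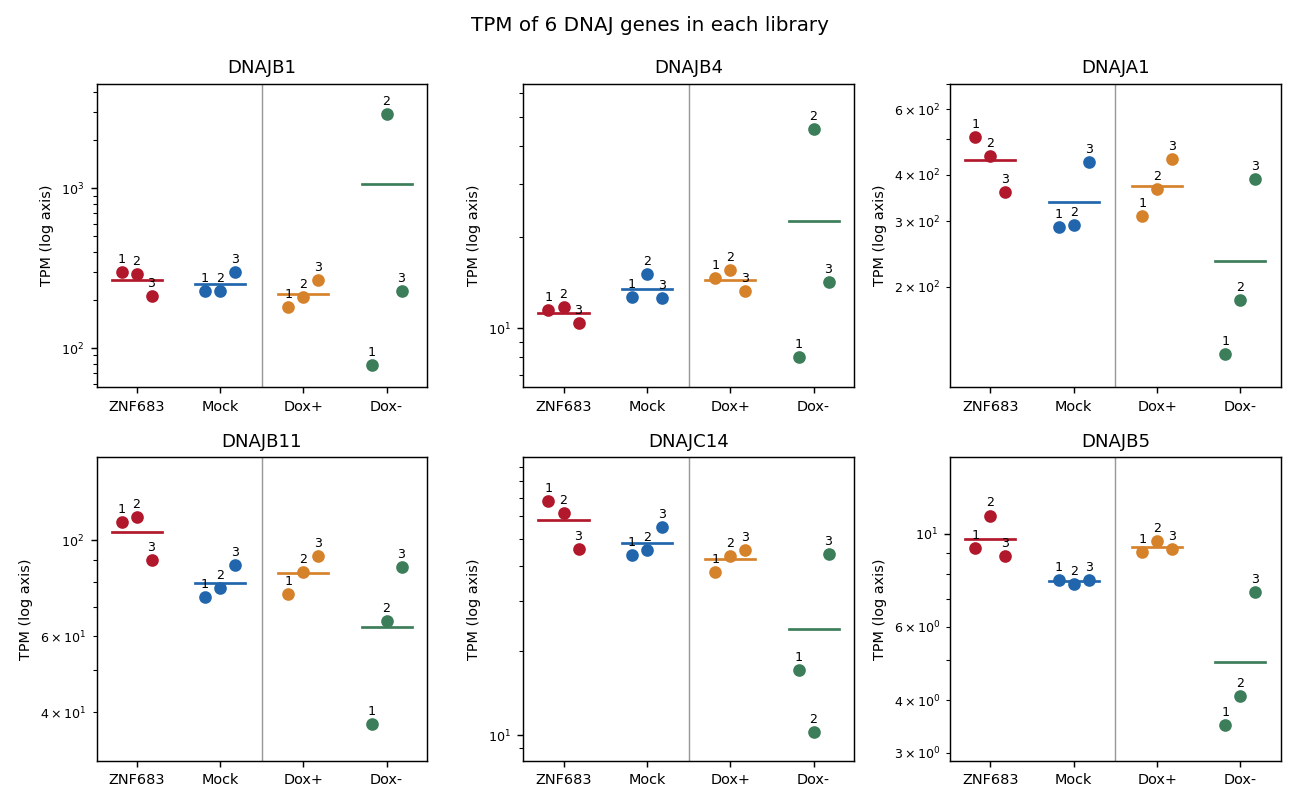
TPM of 6 DNAJ genes in each library on log axes, with points numbered by replicate and a line at each group's mean. DNAJB1 at 2907 TPM and DNAJB4 at 45.5 TPM are the highest points of their panels and both are Dox- library 2, while DNAJC14 has its lowest point, 10.3 TPM, in the same library.

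After median-of-ratios scaling, Dox- library 2 was the single library in which any tested member differed by more than 1 on the log2 scale from the median of the other 5 libraries of its table. It did so for 9 members, 2 above and 7 below, which is 24.3% of the 37, against 23.6% of all genes tested. The differences above were 3.67 for DNAJB1 and 1.47 for DNAJB4. Next came DNAJC2 at 0.67 and DNAJB2 at 0.60. The differences below were -2.03 for DNAJC14, -1.81 for DNAJC11, -1.71 for DNAJC17, -1.60 for DNAJB12, -1.11 for DNAJA1, -1.08 for DNAJC10 and -1.03 for DNAJB5. The 7 low members came from all 3 subfamilies. In the other 11 libraries 0 members differed by more than 1, against 0.838 to 2.21% of all genes tested, so the 0 is near the background.

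**Figure D4:**
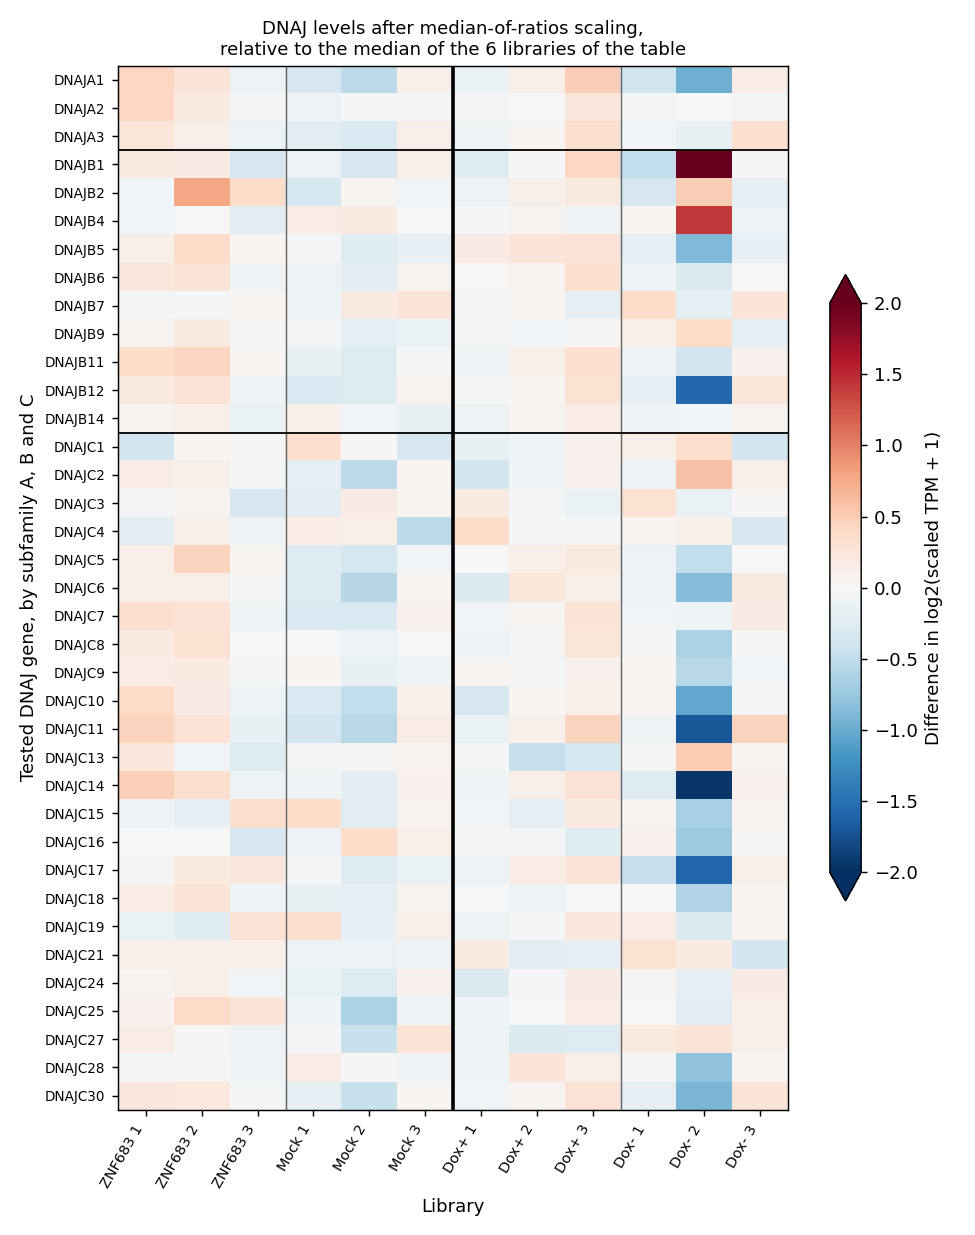
Scaled level of each of the 37 tested DNAJ genes, as the difference in log2(scaled TPM + 1) from the median of the 6 libraries of its table, with red above and blue below. The colour range ends at 2 on either side, and the strong colours are in the Dox- 2 column, red for DNAJB1 and DNAJB4 and deepest blue for DNAJC14, DNAJC11, DNAJC17 and DNAJB12.

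The HSP70 partners that heat shock induces were high in the same library. HSPA6, an HSP70 that human cells make mainly under stress, was at 0.187, 0.183 and 0.351 TPM in Dox+ and 0.113, 637 and 0.341 TPM in Dox-. HSPA1B, a stress-inducible HSP70, was at 6.22, 5.93 and 8.09 TPM in Dox+ and 2.95, 562 and 6.93 TPM in Dox-. Its reads can be shared with the near-identical HSPA1A, at 37.0 TPM in Dox- library 2. HSP90AA1, the inducible HSP90, was at 501, 424 and 494 TPM in Dox+ and 240, 6341 and 568 TPM in Dox-. The HSP70 exchange factor HSPH1 was at 80.2, 96.5 and 111 TPM in Dox+ and 40.2, 327 and 115 TPM in Dox-. Of 8 tested HSP70 genes, 3 fell in Dox+ by limma, with log2 changes of -2.99 for HSPA6, -1.68 for HSPA1A and -1.76 for HSPA1B, and the groups of all 3 overlapped. All 3 calls were lost after median-of-ratios scaling, at an adjusted p of 0.685, while the log2 changes were about as large, at -2.93 for HSPA6, -1.59 for HSPA1A and -1.92 for HSPA1B. Without Dox- library 2, HSPA6 and HSPA1A averaged under 1 TPM and HSPA1B had a log2 change of 0.46. Of 6 chaperonin and small heat shock genes, CRYAB fell, at -1.62 ± 0.39 with an adjusted p of 0.011, again with 1 high library, Dox- 2, at 25.4 TPM, and it averaged under 1 TPM without that library. No alternative in which CRYAB was tested kept its call, and after median-of-ratios scaling its log2 change was -1.52 with an adjusted p of 0.685. In ZNF683 against Mock, 1 of 8 tested HSP70 genes fell, HSPA6, at 0.515, 0.399 and 0.618 TPM in ZNF683 and 6.85, 5.88 and 4.06 TPM in Mock, with a log2 change of -2.11 ± 0.18 and an adjusted p of 0.0105. With 1 library left out its adjusted p ran from 0.00943 to 0.122, and the omission of ZNF683 2, ZNF683 3, Mock 1 or Mock 2 ended the call at log2 changes of -2.05, -2.16, -1.97 and -2.06. With no filter on low values the call was also lost, at an adjusted p of 0.105. The HSPA6 groups did not overlap, whereas those of DNAJB1 did in the same libraries. HSPA1B, not called, also lay wholly below Mock, at 3.68, 3.63 and 2.75 TPM in ZNF683 and 5.90, 5.22 and 4.57 TPM in Mock. Its log2 change was -0.52 ± 0.14 with an adjusted p of 0.283 by limma. HSPA1A, too low to test, was at 0.252, 0.182 and 0.154 TPM in ZNF683 and 0.638, 0.534 and 0.371 TPM in Mock. Of the 8 tested HSP70 genes, 4 changes were positive and 4 negative, and 2 genes lay wholly lower, against 8.51% of all genes.

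The remaining partners were not called in either comparison. Over the 13 HSP70 nucleotide exchange factors the median log2 change was 0.23 for ZNF683 against Mock and 0.43 for Dox+ against Dox-. Over the 13 HSP90 genes and linking co-chaperones it was 0.19 and 0.40, with all 13 positive in the first. The medians of all genes tested were 0.03 and 0.32. After median-of-ratios scaling the exchange factors had 0.28 and 0.23 and the HSP90 list 0.24 and 0.18, against 0.07 and 0.13 over all genes. As deposited, 1 of the 13 exchange factors, BAG1, lay wholly above Mock, against 8.71% of all genes. Its log2 change was 0.71 ± 0.19. The constitutive HSPA8 had 0.23 ± 0.22 and 0.12 ± 0.43. The ER chaperone HSPA5, also called BiP, was at 592, 538 and 370 TPM in ZNF683 and 265, 272 and 502 TPM in Mock, in the order DNAJA1 showed, with Mock library 3 above ZNF683 library 3. The heat shock factors HSF1, HSF2 and HSF4 had changes between -0.23 and 0.12 for ZNF683 against Mock and between -0.11 and 0.42 for Dox+ against Dox-. Of 6 J proteins whose symbols fall outside the rule, 4 were tested and none was called; the ER translocation protein SEC63 had 0.27 ± 0.12 for ZNF683 against Mock.

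Promoters were read for the HSF1 binding element after DNAJB1 and DNAJB4 had been seen to be high in Dox- library 2. The element is made of inverted GAA units, and the search was for a pair of units, GAANNTTC or TTCNNGAA, and for a pair followed after 2 bases by a further unit in alternating orientation, each on both strands. RefSeq windows on GRCh38.p14 from 250 bases before to 50 bases after a start were found for 39 of the 42 members, 51 windows in all. The pair was in 8 of 39 members, 20.5%, against 16.2% of the 27305 genes in the table. The run of 3 units was in 2 members, DNAJA1 and DNAJB6, or 5.13%, against 0.608% of all genes. The 4 stretches below are those of DNAJB1 and DNAJB4, which were high in Dox- library 2, and of DNAJA1 and DNAJB6, which were not. Capitals mark the matches, and each reads 5′ to 3′ toward the gene.
DNAJB1: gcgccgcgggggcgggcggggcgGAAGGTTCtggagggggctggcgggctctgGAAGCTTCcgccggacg
DNAJB4: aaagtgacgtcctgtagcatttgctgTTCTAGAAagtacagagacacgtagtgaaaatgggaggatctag
DNAJA1: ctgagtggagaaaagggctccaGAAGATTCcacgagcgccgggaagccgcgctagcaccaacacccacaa
DNAJB6: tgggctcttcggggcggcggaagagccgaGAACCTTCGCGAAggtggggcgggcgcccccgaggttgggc

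The DNAJB1 stretch lies at chr19:14518428-14518497 on the minus strand and holds 2 separate pairs, which begin 77 and 47 bases before the start. DNAJB1 itself spans 14514770 to 14529770 of chromosome 19 on GRCh38. The DNAJB4 stretch lies at chr1:78004815-78004884 on the plus strand with 1 pair 98 bases before the start, in a gene annotated from 77979175 to 78017964. The DNAJA1 stretch lies at chr9:33025053-33025122 on the plus strand with a pair 198 bases before the start, and the run of 3 units of DNAJA1 lies 3 bases after the start. The DNAJB6 stretch lies at chr7:157336844-157336913 on the plus strand with its run of 3 units 131 bases before the start. All 4 starts lie inside the annotated genes, by 11373 bases for DNAJB1, 25764 for DNAJB4, 62 for DNAJA1 and 1623 for DNAJB6. DNAJA4 held pairs 91 and 52 bases before 1 of its starts and was at 0.12 TPM in Dox- library 2, within the range of the other Dox- libraries, 0.0925 to 0.287 TPM. After median-of-ratios scaling DNAJA4 was at 0.0977 there, the lowest of the 6 libraries, the next lowest being 0.134. In Dox- library 2 the scaled levels thus stood at 3.67 and 1.47 above the others for DNAJB1 and DNAJB4, and at -1.11 and -0.29 for DNAJA1 and DNAJB6. DNAJB7, DNAJC6 and DNAJC15, which also held a pair, stood at -0.21, -0.97 and -0.71. For the DNAJA4 and DNAJC6 starts with a pair, the bases after the start were not found in a GENCODE transcript of the gene. A match describes letters in the window and not binding.

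An ER stress element, CCAAT and CCACG separated by 9 bases, was searched on both strands in the same windows, since several ER members are known targets of the unfolded protein response. It was in 0 of 39 members, against 0.0916% of all genes in the table, which says that these letters are not in these windows.

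The difference between the comparisons was tested as a contrast over all 12 libraries, which share no control. For 37 members 0 differed at an adjusted p of 0.05 by limma, where 2 of 14468 genes, or 0.0138%, did. At an unadjusted p under 0.05, 0 members were positive and 0 were negative, against 0.387% and 3.37% of all genes. The smallest unadjusted p was that of DNAJC28, a mitochondrial member, with a difference of -0.63 ± 0.36 and an adjusted p of 0.876. DNAJB1 had a difference of 0.87 ± 1.06 and DNAJC14 of -0.78 ± 0.51. Without Dox- library 3, 5 members differed, DNAJB5, DNAJB12, DNAJC14, DNAJC17 and DNAJC28, with differences from -1.34 for DNAJC14 to -0.81 for DNAJB5. They were 13.9% of the 36 members tested there, against 17.5% of all genes called with a negative difference. That setting kept only Dox- libraries 1 and 2, which stood apart, in the Dox- group. A p that misses the threshold does not show that the members responded alike, given standard errors of 0.36, 1.06 and 0.51 for DNAJC28, DNAJB1 and DNAJC14. The standard errors near 0.43 in the doxycycline table reflect a spread fitted over genes of like level, not that of each member.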

How the data were processed

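Total RNA (Qiagen RNeasy) was made into NEBNext single-cell or low-input libraries and sequenced, per the labels' protocols. Kallisto 0.46.0 and DESeq2 1.22.2 are named, without a role, in the submitters' processing notes. Build and transcript set are not given in the sources used here. Per gene symbol, TPM were deposited by the authors in 2 tables, of 55514 and 44389 genes, and each library summed to 992727 to 998497 TPM. Separate cultures are not stated for the replicates, so a p-value covers the spread between samples alone, and that spread may be technical.

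In each table, genes averaging at least 1 TPM entered a fit on log2(TPM + 1) by limma 3.58.1 in R 4.3.3, with empirical Bayes moderation and a mean-variance trend, two-sided, with Benjamini-Hochberg adjustment over all genes and a threshold of 0.05. Changes are on this scale, which understates those of low genes, and are given ± SE. Tables were fitted apart, and the difference was a contrast over 12 libraries. In the doxycycline table as deposited the prior degrees of freedom were unlimited, so tests and SEs there used the trend's spread and 1 extreme library could give a call. Procedures were tested on simulated data. Named members were, by rule, all subfamily A, HSF1-inducible and ER members, the 3 highest of each subfamily, the most changed of each role, up to 6 per comparison with the smallest p and groups apart, and up to 6 per table with the most outstanding library; others were named after their values were seen. The members and lists were chosen with earlier results of these data known. Gene positions are from GENCODE v29 on GRCh38, and promoters from RefSeq on GRCh38.p14. DNAJ pseudogene rows, 28 and 24 in the 2 tables, reached at most 2.65 and 2.25 TPM. Alternatives changed the scaling, pseudocount, filter, moderation, replicate block and libraries.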

Additional observations from a re-analysis of the deposited data

How the results depend on the processing

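For ZNF683 against Mock, 0 members were called under every alternative run: median-of-ratios scaling, a pseudocount of 0.1, no filter, a minimum of 5 TPM, robust moderation, the replicate block, AL135790.1 left out, and each library left out. The calls over all genes, 5 as reported, were 3 with a pseudocount of 0.1, 0 with no filter, 0 with a minimum of 5 TPM, 8 with robust moderation and 0 with the replicate block, and ran from 0 to 49 with 1 library left out. For Dox+ against Dox-, 0 members were called under the same alternatives, but from 0 to 8 with 1 library left out, the 8 being without Dox- library 3. The calls over all genes, 60 as reported, were 1 with median-of-ratios scaling, 0 with no filter, 15 with a minimum of 5 TPM, 23 with robust moderation, 34 with the replicate block, 0 with AL135790.1 left out, 0 to 2788 with 1 library left out, and 0 with Dox- libraries 1 and 2 left out, where the members' median change was -0.106 in place of 0.33. For the difference, members called ran from 0 to 5 with 1 library left out and were 0 otherwise, and the calls over all genes, 2 as reported, were 1 with median-of-ratios scaling, 60 with the replicate block, 1 with AL135790.1 left out, 1 with Dox- libraries 1 and 2 left out, and 1 to 2550 with 1 library left out. The cause was not tested. Of the named members, 7 passed the threshold in Dox+ against Dox- without Dox- library 3. No member was called as reported, so none could lose a call; the log2 changes of the named members, uncalled on either side, changed sign in 41 of 402 values for Dox+ against Dox- and in 8 of 372 for ZNF683 against Mock. Replicate numbers do not mark a shared culture in the labels: deviations of same-numbered libraries correlated at -0.211, 0.068 and -0.252 in the table of ZNF683 and Mock and at 0.076, 0.055 and 0.362 in the doxycycline table. The block called 0 members in each comparison. Of the partner calls, it ended that of HSPA6 in ZNF683 against Mock, at an adjusted p of 0.0716, and those of HSPA1A, HSPA1B and CRYAB in Dox+ against Dox-, at 0.0524, 0.0952 and 0.0547, and kept that of HSPA6 there. The number of libraries and their unknown depth limit what single members can show.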
